A study of Mus musculus with 24 samples.

Results

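The genes described here are 7 matrix metalloproteinases (MMPs) and 3 of their inhibitors, the tissue inhibitors of metalloproteinases (TIMPs), in mice with peritonitis. They were chosen by symbol (Mmp2, Mmp3, Mmp9, Mmp12, Mmp13, Mmp14, Mmp19, Timp1, Timp2 and Timp3), and both count tables held all 10 of them among 54658 gene symbols. The study asked how β-nicotinamide mononucleotide (β-NMN), a precursor of NAD+, alters inflammation during peritonitis. RNA was sequenced in 24 libraries. All mice were C57BL/6 males of 7 to 12 weeks. Each received either β-NMN at 185 mg/kg per injection or saline (vehicle), given intraperitoneally from the time peritonitis was induced. Peritoneal cells came from 6 vehicle and 6 β-NMN mice in which sterile peritonitis had been raised with thioglycollate. These mice were injected once daily for 3 days, and their cells were collected by lavage on day 3. In both groups the cells were then kept with E. coli for 6 h in culture. Heart and lung came from 3 vehicle and 3 β-NMN mice after cecal ligation and puncture (CLP), a model of septic peritonitis, 24 h after surgery, with both organs taken from each mouse. The study describes these organs as taken after a single administration of β-NMN, so the dosing differed from that of the peritoneal cells. Every group had therefore met bacteria, and no unstimulated cells or sham-operated organs were analysed here, so the values below compare β-NMN with vehicle within inflamed material only.

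MMPs are zinc-dependent proteases that cut collagens, elastin, laminins and other matrix proteins, as well as cytokines, chemokines and cell surface receptors. Most are made as inactive proenzymes that other proteases must cleave, and TIMPs block the active enzyme by binding its catalytic site. In inflammation, macrophages and neutrophils use them to pass through tissue, while fibroblasts and epithelia use them in matrix turnover and repair.

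Library totals ranged from 8915366 to 112456050 counts, and levels are given as CPM, counts scaled to 1000000 per library after the library sizes had been adjusted by TMM, the trimmed mean method of edgeR. The tissue labels fitted their markers: the summed CPM of 5 cardiomyocyte genes was 29611 to 52362 in heart and at most 415 in lung, that of 5 alveolar epithelial genes was 25754 to 46865 in lung, and that of 8 macrophage genes was 7091 to 13439 in the peritoneal cells. Vehicle mouse 2 of the CLP experiment stood apart in both organs. Its lung library was the shallowest. Over genes, its log2 difference from the mean of all other lungs, of both treatments, had an SD of 1.57. The remaining lung libraries had 0.45 to 0.60. Its macrophage marker sum was 1379 CPM against 4096 to 5535, and its red cell sum was 11846 against 1956 to 4019. Its heart library had an SD of 0.99, measured in the same way against the other hearts, where those had 0.39 to 0.58. It had a mesothelial sum of 83.6 CPM against at most 7.60 and a cardiomyocyte sum of 29611 against at least 45816. Changes with β-NMN and levels in heart and lung are given with and without this mouse where it moved them.

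Mmp13, Mmp12 and Mmp3 are neighbours on chromosome 9 of the mouse genome (GRCm38), at chr9:7272514-7283331, chr9:7344381-7369499 and chr9:7445822-7455975, all on the plus strand. Their sequences just before the start site are shown because all 3 hold the letters TGANTCA, the motif bound by AP-1. In the peritoneal cells Mmp12 and Mmp13 were higher with β-NMN, while Mmp3 was too scarce to be tested by edgeR. RefSeq windows of 250 bases before to 50 after a start site (build GRCm38.p6) were found for 7 of the 10 members, with Mmp12 having 2 start sites and windows, and not for Mmp2, Mmp9 and Mmp19. TGANTCA, which reads alike on both strands, stood in 3 of these 8 windows, 1 each for Mmp13, Mmp12 (the downstream start) and Mmp3, and in 7.81% of all 32851 windows. The TATA box letters TATAAA stood in the same 3 windows, against 13.6% of all windows, and in that of Mmp12 they lay after the start. An NF-kappaB motif, searched on both strands, stood in none of the 8, against 1.63% of all windows, and the motifs did not overlap each other. The 80 bases before each start site, on the plus strand and with TGANTCA and TATAAA in capitals, were chr9:7272434-7272513 for Mmp13, chr9:7347294-7347373 for Mmp12 and chr9:7445742-7445821 for Mmp3.
Mmp13: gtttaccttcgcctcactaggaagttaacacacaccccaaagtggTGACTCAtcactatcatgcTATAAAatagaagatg
Mmp12: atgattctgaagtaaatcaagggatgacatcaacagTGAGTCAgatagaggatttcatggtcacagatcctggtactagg
Mmp3: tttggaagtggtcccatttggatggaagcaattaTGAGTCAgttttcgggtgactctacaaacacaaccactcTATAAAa
The AP-1 letters began 35, 44 and 46 bases before the start sites of Mmp13, Mmp12 and Mmp3. The other members lie elsewhere: Mmp2 at chr8:92827291-92853420, Mmp9 at chr2:164940780-164955850, Mmp14 at chr14:54431612-54445364, Mmp19 at chr10:128790910-128800824, Timp1 at chrX:20870166-20874735, Timp2 at chr11:118301069-118355740 on the minus strand and Timp3 at chr10:86300372-86349506. Timp3 shared 1733 of its 8144 exon bases with Syn3 on the opposite strand, Mmp19 shared 789 with Tmem198b and 212 with Gm47093, and Mmp12 shared 157 with Mmp1b, so that part of their reads can be assigned to them only where strand or the rest of the read decides.

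To compare levels between genes, CPM was divided by the length in kb of all annotated exons of the gene, which is longer than any single transcript for some genes (7237 bases for Mmp12). In vehicle peritoneal cells, Timp1 and the membrane-bound Mmp14 were the highest members, at 242 and 175 CPM per kb, and their libraries overlapped. Mmp13, Mmp12 and Timp2 followed at 79.1, 61.6 and 38.6, with each pair of neighbours overlapping. Mmp9 and Mmp19 lay at 10.3 and 8.18, and Timp3, Mmp2 and Mmp3 at 1.53, 0.527 and 0.203. The order was another in vehicle heart, where Timp1, Mmp2 and Timp2 led with 56.2, 40.2 and 36.1 CPM per kb and overlapping libraries, and where Mmp13 and Mmp12 came last at 0.190 and 0.0274. Without vehicle mouse 2, the heart means of Mmp2, Timp2, Timp3 and Timp1 lay within 26.4 to 30.1. In vehicle lung, Timp2, Mmp3, Timp1 and Mmp14 had the highest means (130.5, 109, 103 and 76.0), Mmp13 and Mmp12 were again last (0.338 and 0.315), and the neighbours overlapped at every step but that from Mmp19 to Mmp13. This lung order rested on vehicle mouse 2, without which Mmp3, Timp1 and Mmp14 had means of 24.6, 42.5 and 26.6 and Timp3, at 66.2, came after Timp2 (137). The metalloelastase Mmp12 and the collagenase Mmp13 thus stood at 61.6 and 79.1 CPM per kb in the vehicle peritoneal cells and below 1 in both organs. Mmp2, Mmp3 and Timp3, the lowest members in the peritoneal cells, had means of 15.0 or more in both organs, with or without that mouse. These tissues came from different experiments and tables, so the levels stand side by side without a test.

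**Figure D1:**
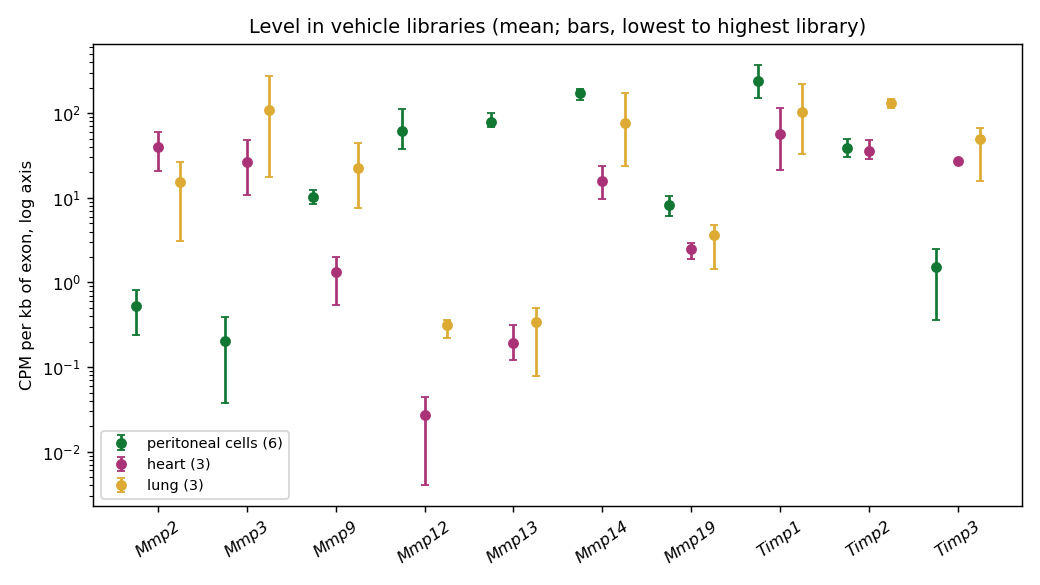
Level of each gene in vehicle libraries, as CPM per kb of exon on a log axis, with the mean as a point and a bar from the lowest to the highest library (6 for peritoneal cells, 3 each for heart and lung). Mmp12 and Mmp13 sat at 61.6 and 79.1 CPM per kb in peritoneal cells and below 1 in both organs.

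In the peritoneal cells, the members moved in both directions. Mmp12, Mmp13, Mmp19 and Timp2 were higher with β-NMN, whereas Timp1, Timp3 and the gelatinases Mmp2 and Mmp9 were lower. With edgeR's quasi-likelihood test and Benjamini-Hochberg adjustment (adjusted p below 0.05, called "edgeR adjusted p" from here on), 4 of the 9 members that passed the filter on low counts rose and 4 fell. Over all 14985 genes tested, 51.6% were called, 23.7% as higher and 27.9% as lower, so a call was common in this comparison. The groups did not overlap for 5 members (Mmp2, Mmp9, Mmp12, Timp1 and Timp2), against 26.6% of all genes. Of these, Mmp2 passed the filter through its vehicle libraries (51 to 303 counts, against 2 to 23 with β-NMN), which favours a lack of overlap in that direction. The median log2 fold change was -0.14 over the members and -0.02 over all genes. A change in bulk RNA does not tell fewer or more cells of a type from less or more RNA per cell.

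**Figure D2:**
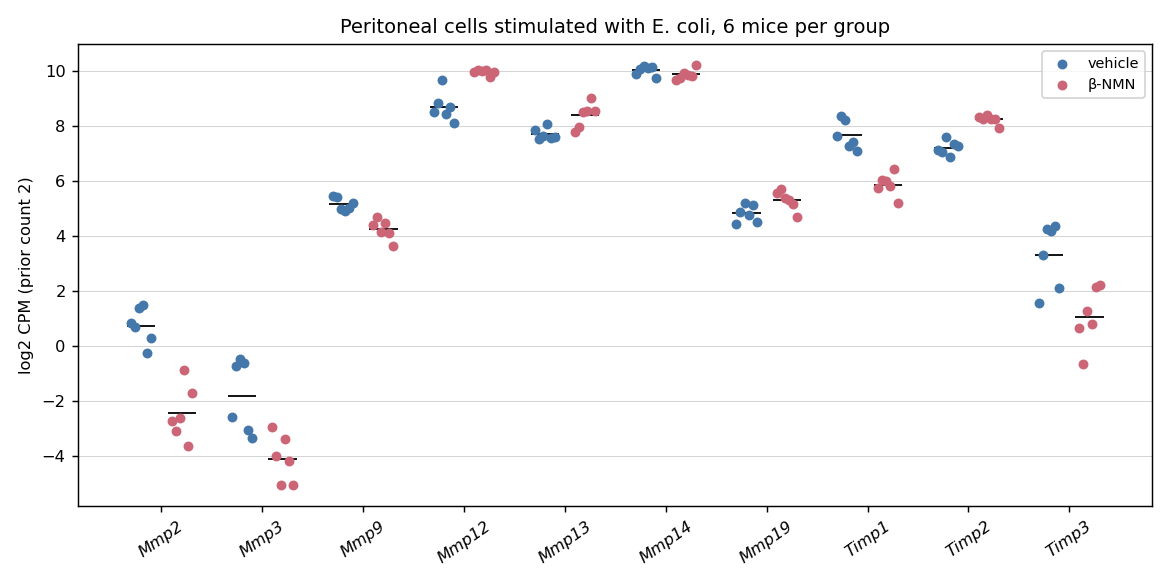
log2 CPM (prior count 2) of each gene in each peritoneal library, vehicle in blue and β-NMN in red, 6 mice per group, with a line at the group mean. All 6 β-NMN libraries lie above all vehicle libraries for Mmp12 and Timp2 and below them for Mmp2, Mmp9 and Timp1, while Mmp14 overlaps.

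Mmp12, the macrophage metalloelastase, which cuts elastin and several chemokines, had the largest rise of the members. It ranged from 273 to 821 CPM in vehicle cells (median 388) and from 878 to 1063 with β-NMN (median 1006), so no library of one group reached the other. The means differed 2.24-fold, 446 ± 194 against 998 ± 64.4 CPM (SD, n = 6), with a log2 fold change of 1.16 ± 0.20 (SE) and an edgeR adjusted p of 0.000277. Vehicle replicate 3 alone reached 821 CPM, the next vehicle library being at 456, and without it the log2 fold change was 1.47.

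Mmp13, an interstitial collagenase, ranged from 186 to 266 CPM in vehicle cells (median 198) and from 221 to 515 with β-NMN (median 369). The ranges overlapped, because the 2 deepest β-NMN libraries, replicates 1 and 2, held 221 and 247 CPM while the other 4 held 364 to 515. The means were 211 ± 31.2 and 349.6 ± 106 CPM (SD, n = 6), a log2 fold change of 0.73 ± 0.18 with an edgeR adjusted p of 0.00303. Mmp19, a broad-specificity MMP of many tissues, ranged from 21.5 to 37.2 CPM (median 28.5) in vehicle cells and from 25.6 to 52.3 (median 40.7) with β-NMN. Its rise was the smallest of the called members, with a log2 fold change of 0.48 ± 0.17 and an edgeR adjusted p of 0.0263. It lost the call without vehicle replicate 6 (adjusted p = 0.0578) or without β-NMN replicate 2 (adjusted p = 0.0690).

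Mmp14 (MT1-MMP), the membrane collagenase that with Timp2 activates proMmp2 at the cell surface, was the one tested member that was not called. It lay between 862 and 1151 CPM in vehicle cells (median 1087) and between 824 and 1191 with β-NMN (median 910). The log2 fold change was -0.14 ± 0.11 with an edgeR adjusted p of 0.281, and the groups overlapped over nearly their whole range.

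Both gelatinases, which cut denatured collagen and basement membrane collagen IV, were lower with β-NMN. Mmp9, which neutrophils store and macrophages secrete, ranged from 30.2 to 43.5 CPM (median 34.8) in vehicle cells and from 12.5 to 25.6 (median 19.5) with β-NMN. The groups did not overlap, and the log2 fold change was -0.90 ± 0.15 with an edgeR adjusted p of 0.000209. Mmp2, typically made by fibroblasts, was scarce in both groups, at 0.814 to 2.75 CPM (median 1.67) against 0.0510 to 0.514 (median 0.127). Among the tested members it had the steepest fall, a log2 fold change of -3.21 ± 0.47 with an edgeR adjusted p of 5.42e-05, again without overlap. This value rests on 51 to 303 counts in the vehicle and 2 to 23 counts in the β-NMN libraries.

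Mmp3 (stromelysin-1), which cuts proteoglycans and activates other proMMPs, did not pass the filter. It had 4 to 68 counts per vehicle library (0.0685 to 0.701 CPM) and 0 to 9 counts with β-NMN (0 to 0.0989 CPM), and the groups overlapped. An exact two-sided permutation test on log2 CPM gave p = 0.00866, where the smallest p that 6 against 6 libraries allow is 0.00216. Of the chromosome 9 neighbours with TGANTCA before their start, 2 were thus higher with β-NMN while the third was scarce and lower in mean CPM.

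The inhibitors moved in opposite directions. Timp1, the inducible TIMP that also acts as a cytokine, ranged from 135 to 330.4 CPM in vehicle cells (median 184) and from 36.4 to 85.8 with β-NMN (median 60.4). Its mean was 3.56-fold higher in vehicle cells, the log2 fold change was -1.83 ± 0.24 and the edgeR adjusted p was 1.87e-05. Timp2, the TIMP that can bridge Mmp14 and proMmp2, ranged from 117 to 195 CPM (median 147) in vehicle cells and from 246 to 338 (median 306) with β-NMN, a 2.02-fold rise with a log2 fold change of 1.01 ± 0.12 and an edgeR adjusted p of 7.43e-06. Per kb of exon, the lowest vehicle library of Timp1 lay above the highest of Timp2 (153 and 50.1), whereas with β-NMN their ranges overlapped (41.0 to 96.6 for Timp1 and 63.2 to 86.7 for Timp2). Timp3, the TIMP that binds to the matrix, ranged from 2.94 to 20.5 CPM (median 14.0) in vehicle cells and from 0.603 to 4.63 (median 2.06) with β-NMN. Its log2 fold change was -2.33 ± 0.53 with an edgeR adjusted p of 0.00190, and the groups overlapped because vehicle replicates 1 and 6 held 2.94 and 4.28 CPM.

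Several marker lists moved with these genes. All 4 tested of 6 fibroblast markers fell, and the summed list ranged from 61.3 to 611 CPM in vehicle libraries (highest in replicate 3) and from 17.9 to 53.7 with β-NMN. Mmp2 was 1.74 and 1.20 CPM in the vehicle libraries with the lowest fibroblast sums (61.3 and 65.6), and it was at most 0.514 CPM in the β-NMN libraries. Timp3 lay at 2.94 and 4.28 CPM in those same vehicle libraries, within the β-NMN range. Of 6 tested neutrophil markers 5 fell and Retnlg rose, with list sums of 477 to 990 CPM in vehicle and 327 to 456 in β-NMN libraries. S100a8, S100a9, Ly6g and Cxcr2 fell, with log2 fold changes of -5.00, -5.31, -4.77 and -4.10, whereas Csf3r, the G-CSF receptor, was at -0.58 and made up 69.6 to 80.5% of the sum in vehicle and 89.9 to 98.2% in β-NMN libraries. Without Csf3r the sums were 93.6 to 301 and 8.26 to 33.1 CPM. Within the vehicle group, the 2 libraries with the highest neutrophil sums (990.0 and 887) had the highest Mmp9 (43.5 and 43.1 CPM) and the 2 with the lowest sums (477 and 582) the lowest (31.6 and 30.2 CPM). Within the β-NMN group the lowest Mmp9 (12.5 CPM) stood at the highest sum (456) and the highest Mmp9 (25.6 CPM) at the lowest sum (327), but without Csf3r these same libraries had the lowest and the highest sum (8.26 and 33.1, of which Retnlg was 3.21 and 30.1). Of 8 macrophage markers 4 rose and Cd14, the co-receptor for lipopolysaccharide, fell by 2.92 on the log2 scale, with list sums of 7091 to 13439 against 10834 to 12492 CPM. Red cell markers (4 of 4 higher, sums of 2.82 to 37.8 and 51.2 to 129 CPM) and smooth muscle markers (2 of 3 tested lower, 2.58 to 13.7 and 0.855 to 1.63) did not overlap in their sums. T cell markers (4 of 4 lower, 3.53 to 14.7 and 1.84 to 3.69) and large peritoneal macrophage markers (2 of 5 higher, 3 lower, 31.0 to 39.0 and 37.1 to 109) overlapped slightly. Mesothelial markers (2 of 3 tested lower, 1.502 to 8.003 and 1.11 to 3.21) and B cell markers (2 of 4 lower, 30.6 to 149 and 20.6 to 81.6) overlapped in their sums, as did endothelial (1 of 4 tested higher, 2 lower, 112 to 181 and 152 to 259), eosinophil (1 of 2 tested higher, 8.23 to 32.1 and 15.2 to 60.7) and cardiomyocyte markers (1 of 3 tested higher, 0.836 to 2.46 and 2.07 to 4.72). Those of airway epithelium (1 of 3 tested lower, 3.38 to 5.87 and 0.739 to 3.22) and alveolar epithelium (1 of 2 tested higher, 1 lower, 6.33 to 12.7 and 15.4 to 16.9) did not. Vehicle replicate 3, the vehicle library richest in Mmp12, also had the highest macrophage sum of all. No marker of these lists was at 0 throughout, and their part in the changes of the members was not tested.

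**Figure D3:**
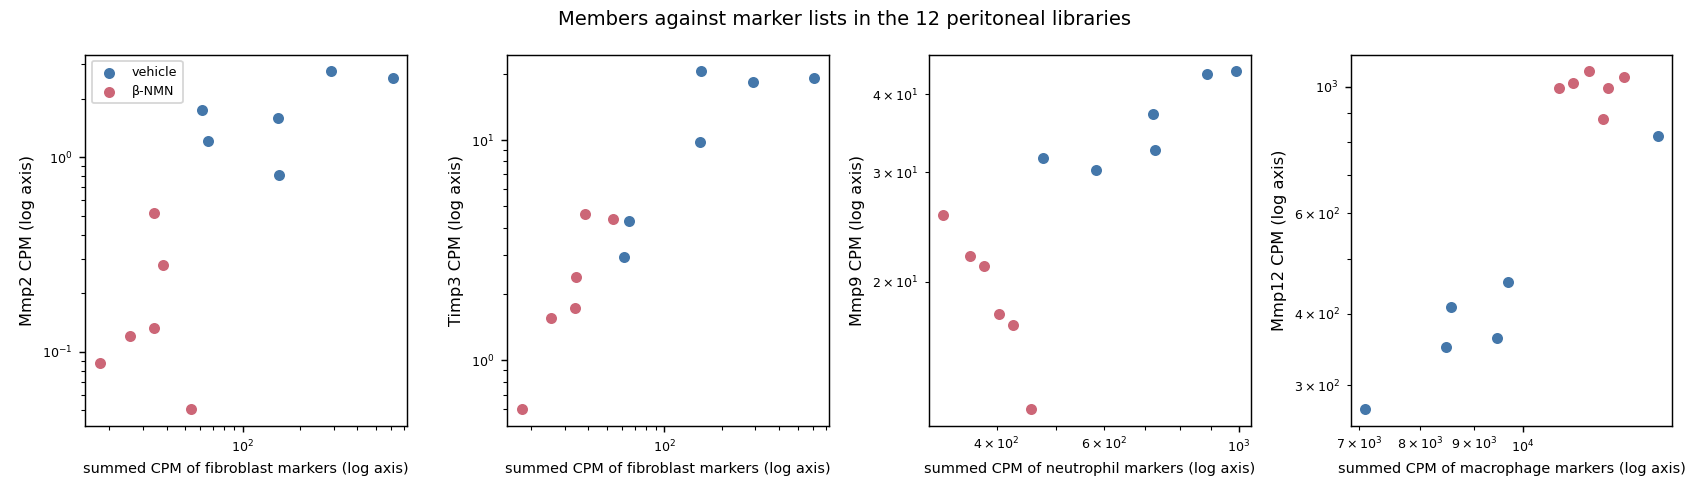
Mmp2 and Timp3 against the summed CPM of 6 fibroblast markers, Mmp9 against 8 neutrophil markers and Mmp12 against 8 macrophage markers, on log axes, in the 12 peritoneal libraries (vehicle blue, β-NMN red). The fibroblast sums of the groups do not overlap (61.3 to 611 and 17.9 to 53.7 CPM), and Timp3 of 2 vehicle libraries falls within the β-NMN range.

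The peritoneal libraries fell into a deeper class (above 70000000 counts: vehicle replicates 4, 5 and 6 and β-NMN replicates 1 and 2) and a shallower class of 7, and all 9 tested members kept their direction in each. Among the 7 shallower libraries, 7 of the 8 called members stayed past the threshold and Mmp19 did not (log2 fold change 0.31, edgeR adjusted p = 0.319). Among the 5 deeper libraries, 6 of the 8 stayed. Calls over all genes also fell in the shallower class, as given in the closing section, and those of the deeper class are not given here. There Mmp9 was at -0.44 (adjusted p = 0.0694) and Mmp13 at 0.18 (adjusted p = 0.459), against -1.15 and 1.01 in the shallower class. Timp3 was at -3.67 in the deeper and -1.67 in the shallower class, and Mmp19 at 0.88 and 0.31. Mmp12 was at 1.63 and 0.88, Timp1 at -1.29 and -2.15, Mmp2 at -3.84 and -2.94 and Timp2 at 1.17 and 0.97 in the deeper and the shallower class. The difference between the classes itself was not tested.

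The genes most like each called member were sought over the 12 peritoneal libraries after each group's mean had been taken out, among 9638 genes, as a description without a test, since such libraries share depth and cell makeup. Timp3 was most like Ddr1, Ddr2 and Col6a1 (Pearson r = 0.97, 0.96 and 0.96), the first pair being collagen receptors and the last a collagen chain. Mmp9 was most like Cyp4f18, Pglyrp1 and Pi16 (0.96, 0.93 and 0.93). Pglyrp1 encodes a peptidoglycan-binding protein of neutrophil granules. Mmp13 was most like Lcn2, Trem3 and Mlx (0.89, 0.88 and 0.86). Lcn2 thus varied with Mmp13 from library to library within the groups, while between the groups Mmp13 rose and Lcn2 fell by 4.55 on the log2 scale. The nearest genes were Slc2a8, Edem2 and Cfl2 for Mmp12 (0.94, 0.93 and 0.92), Snx21, Sept9 and Samd1 for Mmp19 (0.93, 0.92 and 0.92), Tmem176b, Ifitm2 and Mrpl52 for Timp1 (all 0.90), Cryl1, Ap1s1 and Mpi for Timp2 (0.95, 0.92 and 0.91) and Nipsnap2, Far1 and Memo1 for Mmp2 (0.83, 0.83 and 0.81). No gene of one member's trio stood in that of another.

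Of 17 other genes of the MMP and TIMP families, 8 passed the filter in the peritoneal cells, 2 rose and 2 fell. Mmp27 rose from 7.71 ± 3.13 to 16.7 ± 3.32 CPM (SD, n = 6), a log2 fold change of 1.12, and Mmp28 rose from 2.05 ± 0.476 to 3.07 ± 0.719. Mmp23 and the membrane-anchored Mmp17 fell by 2.08 and 1.54 on the log2 scale.

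Among activators and cell surface regulators of MMPs, 3 of 12 tested rose and 5 fell. The urokinase Plau, which generates plasmin, a protease that activates proMMPs, rose from 174 ± 17.7 to 375 ± 82.6 CPM, a log2 fold change of 1.11 ± 0.14 with an edgeR adjusted p of 1.39e-05. Its receptor Plaur and the hyaluronan receptor Cd44, which can hold Mmp9 at the cell surface, rose by less, with log2 fold changes of 0.28 and 0.27. Lcn2, the neutrophil lipocalin that binds and shields Mmp9, fell from 401 ± 70.3 to 17.2 ± 8.14 CPM, so Lcn2 and Mmp9 were lower together while Cd44 was higher. The tissue plasminogen activator Plat, the membrane-anchored MMP inhibitor Reck and the matricellular protein Thbs1 fell by 2.26, 2.23 and 1.62 on the log2 scale. Of 16 tested ADAM and ADAMTS proteases, 4 rose and 6 fell. Adam10, Adamts4, Adam8 and Adam15 rose by 0.27 to 0.46 on the log2 scale, whereas Adam12, Adamts5, Adamts9 and Adamts2, all below 5 CPM on average, had log2 fold changes of -1.65 to -2.78.

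Most of the matrix proteins that MMPs cut were lower. All 15 passed the filter, 13 fell and none rose, while Lamc1 (-0.43) and Vcan (0.26) were not called (edgeR adjusted p = 0.0627 and 0.275), with a median log2 fold change of -2.10 against -0.02 over all genes. Fibronectin (Fn1), by far the most abundant of those named, fell from 2409 ± 643 to 881 ± 89.6 CPM (log2 fold change -1.45), and the basement membrane genes Nid1 and Col4a2 and the matricellular Tnc fell by 2.01, 2.48 and 2.30 on the log2 scale. The fibroblast and smooth muscle markers given above moved with this list, but the fibroblast and matrix lists share 2 genes, Col1a1 and Dcn. Of the 14 cytokines and transcription factors known to induce MMP genes, 13 fell and none rose (median -1.23). Fosl2, an AP-1 subunit, fell from 725 ± 91.0 to 161 ± 38.8 CPM, Ets2, a factor of the Ets family, from 698 ± 93.3 to 160.4 ± 30.0, Il1b from 2478 ± 920.2 to 275 ± 64.3 and Il6 from 257 ± 50.8 to 86.5 ± 17.4 (SD, n = 6). The rise of Mmp12, Mmp13, Mmp19 and Timp2 and the fall of Mmp2, Mmp9, Timp1 and Timp3 thus both stood beside lower RNA of these inducers.

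In the CLP heart, the mean of all 10 members was lower with β-NMN, but none was called by edgeR, while DESeq2 called 2. Over all 16245 genes tested, 0% were called by edgeR's quasi-likelihood test and 1837 had an unadjusted p under 0.05 (283 were called by DESeq2 and 3 by limma-voom), and the log2 fold change was below 0 for 50.7% of them. The groups did not overlap for 6 members (Mmp3, Mmp13, Mmp14, Mmp19, Timp1 and Timp3), in each case with every β-NMN heart below every vehicle heart, against 23.1% of all genes in either direction and 11.5% in that one. Of these, Mmp13 passed the filter on low counts only through the vehicle hearts (11 to 55 counts, against 0 to 6 with β-NMN), which favours a lack of overlap in that direction. With 3 mice against 3 the exact permutation test cannot go below p = 0.10, which is the value for each of the 6. The median log2 fold change of the members was -0.98, against -0.01 over all genes.

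**Figure D4:**
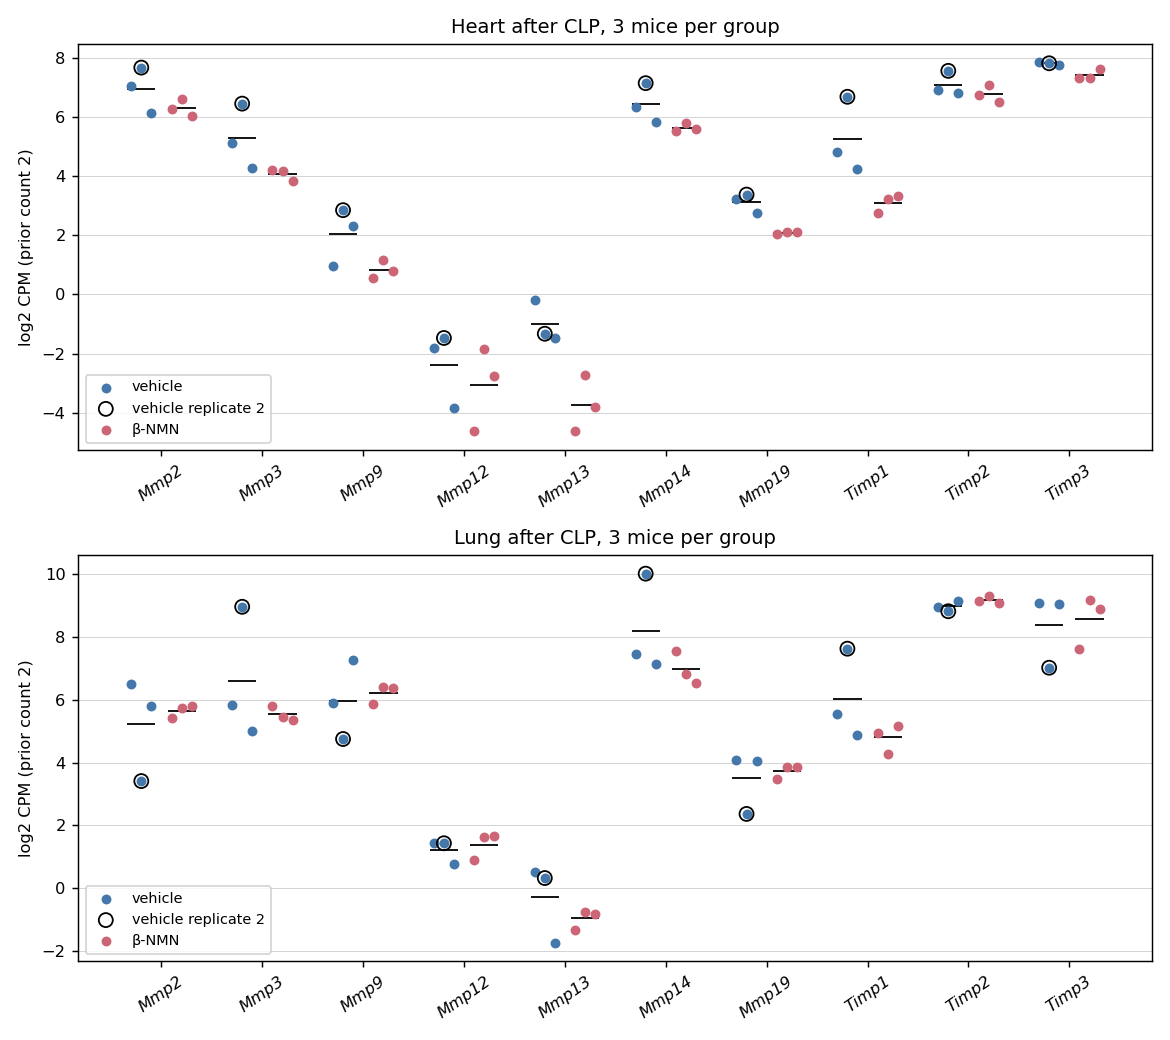
log2 CPM (prior count 2) of each gene in each heart (top) and lung (bottom) library after CLP, 3 mice per group, vehicle in blue with mouse 2 ringed and β-NMN in red, with a line at the group mean. In heart, 6 members have all β-NMN libraries below all vehicle libraries, and in lung the ringed library is the highest for Mmp3, Mmp14 and Timp1 and the lowest for Mmp2, Mmp9, Mmp19, Timp2 and Timp3.

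Timp1 showed the largest fold difference among the well-counted members in heart. It was 28.0, 103 and 18.9 CPM in the vehicle hearts and 6.67, 9.26 and 9.92 CPM with β-NMN. The log2 fold change was -2.53 ± 0.64 (SE) with an edgeR adjusted p of 0.435, and without vehicle mouse 2 it was -1.44 ± 0.21 with an adjusted p of 0.116. Timp3 held the tightest groups of the inhibitors, 230.0, 225.5 and 219 CPM against 161, 159 and 196, a log2 fold change of -0.39. Timp2 was 119.8, 189 and 113 CPM in vehicle and 108, 134 and 90.5 with β-NMN, which overlapped.

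Mmp19 was 9.24, 10.3 and 6.64 CPM in the vehicle hearts and 4.10, 4.27 and 4.26 with β-NMN. Its log2 fold change of -1.05 ± 0.20 had the smallest unadjusted p of the members (0.00131) and an edgeR adjusted p of 0.435. With DESeq2, Mmp19 and Timp1 were called (adjusted p = 0.00175 and 0.00269) and the other members were not. Mmp3 was 34.7, 87.5 and 19.3 CPM against 18.6, 17.9 and 14.1, and Mmp14 was 81.1, 141 and 57.4 against 46.3, 55.0 and 48.8. Neither pair of groups overlapped, although the lowest vehicle heart lay close to the β-NMN hearts for both.

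The gelatinases overlapped in heart. Mmp2, which made up the most abundant MMP RNA there per kb, was 132, 204 and 70.5 CPM in vehicle and 77.9, 96.7 and 65.0 with β-NMN, and Mmp9 was 1.92, 7.17 and 4.89 against 1.42, 2.18 and 1.71. Mmp13 was nearly absent, with 55, 19 and 11 counts in vehicle and 0, 6 and 2 counts with β-NMN, and its log2 fold change of -3.21 ± 0.79 rests on these few reads. Mmp12 had 0 to 17 counts in any heart.

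Without vehicle mouse 2, all 10 members kept their lower mean in heart. The same 6 did not overlap, Mmp13 with the limit given above, against 29% of all genes (14.3% with every β-NMN heart lower). The median log2 fold change of the 10 was then -0.59. The fold changes of Mmp2, Mmp3, Mmp9, Mmp14 and Timp2 were -0.76, -1.49, -1.39, -0.90 and -0.34 with the mouse and -0.35, -0.70, -0.93, -0.48 and -0.08 without it. Those of Mmp12, Mmp13, Mmp19 and Timp3 were -0.25, -3.42, -0.92 and -0.39 without it. It was the highest vehicle heart for every member except Mmp13 and Timp3. Its high mesothelial and low cardiomyocyte sums are given above, and their part was not tested. Fibroblast sums were 908 to 1626 CPM in vehicle and 780.0 to 1064 in β-NMN hearts, and macrophage sums were 270 to 385 and 264 to 468. The groups did not overlap for the neutrophil list (23.3 to 39.3 in vehicle and 14.4 to 16.8 with β-NMN), the large peritoneal macrophage list (289 to 1103 and 240 to 288) and the cardiomyocyte list (29611 to 46115 and 48052 to 52362). Their part in the lower levels of the members was not tested. Of the large peritoneal macrophage list, Prg4 and Cxcl13 were at -2.01 and -1.62 in heart, and Gata6, Icam2 and Timd4 at -0.10, 0.20 and 0.11. The heart sums of this list lay above those of the peritoneal cells (31.0 to 109), so they do not measure such macrophages in heart. Of the inducer list all 14 genes had a lower mean log2 value in heart (median -1.19, none called), and 13 of them without vehicle mouse 2. Il6 and Junb had the smallest p of that list, with log2 fold changes of -5.92 and -1.56. The protease Adamts4 was at -2.29, Plaur at -2.11 and Vcan, a matrix proteoglycan, at -1.41, while Adamts7 and Lamb1 were at 0.79 and 0.48, all with an edgeR adjusted p of 0.435. Without vehicle mouse 2, Il6, Junb, Adamts4, Plaur, Vcan, Adamts7 and Lamb1 were at -5.17, -1.22, -1.71, -1.05, -1.05, 0.61 and 0.37, and Junb alone of these was called (edgeR adjusted p = 0.0168). The other lists had medians of -0.24 (other MMP and TIMP genes), -0.43 (regulators), -0.54 (ADAM and ADAMTS) and -0.34 (matrix), which became 0.05, -0.09, -0.23 and -0.15 without that mouse, and the median of the inducers became -0.43.

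In the CLP lung, no member was called, the groups of no member failed to overlap (8.21% of 17008 genes did so), and 0% of all genes were called by edgeR's quasi-likelihood test, with 301 at an unadjusted p under 0.05 (9 were called by DESeq2 and 7 by limma-voom). Of the members, 4 had positive and 6 negative log2 fold changes (median -0.07, 0.00 over all genes), and the smallest edgeR adjusted p was 0.969. Vehicle mouse 2 decided the largest of these values. Mmp3 was 56.6, 501 and 31.9 CPM in vehicle lungs and 56.2, 43.5 and 41.4 with β-NMN, with a log2 fold change of -2.06 that became 0.08 without that mouse. Mmp14 was 175, 1042 and 142 CPM against 187, 113 and 93.8, and its log2 fold change went from -1.79 to -0.28. Timp1 was 46.4, 198 and 29.1 CPM against 30.9, 19.4 and 35.8, and went from -1.66 to -0.39. The same lung was lowest in Mmp2 (10.5 CPM, against 90.4 and 55.5 in the other vehicle lungs), Mmp19 (5.06 against 16.9 and 16.5) and Timp3 (130.2 against 550.0 and 529). The marker sums of the groups did not overlap in lung for the macrophage list (1379 to 4418 CPM in vehicle and 5105 to 5535 with β-NMN, with 4096 and 4418 in the vehicle lungs other than that of mouse 2) and the cardiomyocyte list (252 to 415 and 74.3 to 245), and their part in the members' values was not tested.

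The groups of the remaining members also overlapped in lung. Timp2, the most abundant, was 500.1, 454 and 571 CPM in vehicle and 565, 634 and 545 with β-NMN, a log2 fold change of 0.19 ± 0.24. Mmp9 was 59.1, 26.9 and 156 CPM against 58.8, 85.3 and 83.5, and Timp3 with β-NMN was 196, 585 and 480.1. Mmp12 was at 1.62 to 3.04 CPM in all lungs and Mmp13 at 0.207 to 1.35. Without vehicle mouse 2, Mmp2 (55.5 and 90.4 against 42.6 to 55.3 CPM) and Mmp19 (16.5 and 16.9 against 11.1 to 14.6) had every β-NMN lung below the vehicle lungs, as had 10.7% of all genes, and neither was called (edgeR adjusted p = 0.991 for each). In the other lists none was called in lung either. Their medians were 0.11 (other MMP and TIMP genes), -0.21 (regulators), -0.35 (ADAM and ADAMTS), 0.19 (matrix) and -0.14 (inducers), and without vehicle mouse 2 they were -0.08, -0.26, -0.16, -0.08 and -0.19. The 2 of smallest p in each were Timp4 and Mmp11 (-0.68 and 0.68), Plaur and Reck (-1.07 and 0.77), Adamts4 and Adam28 (-1.78 and -0.60), Dcn and Lama4 (-1.26 and 0.52) and Il1b and Junb (-0.94 and -1.29). Without that mouse the same genes were at -0.47 and 0.26, -0.42 and 0.56, -1.32 and -0.49, -0.18 and 0.18, and -0.91 and -0.63. Mmp8 and Mmp11 were the corresponding MMPs in heart, at -0.89 and 0.57, and Lcn2 was at -1.61 there, and the 3 were at -0.89, 0.51 and -0.86 without the mouse.

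**Figure D5:**
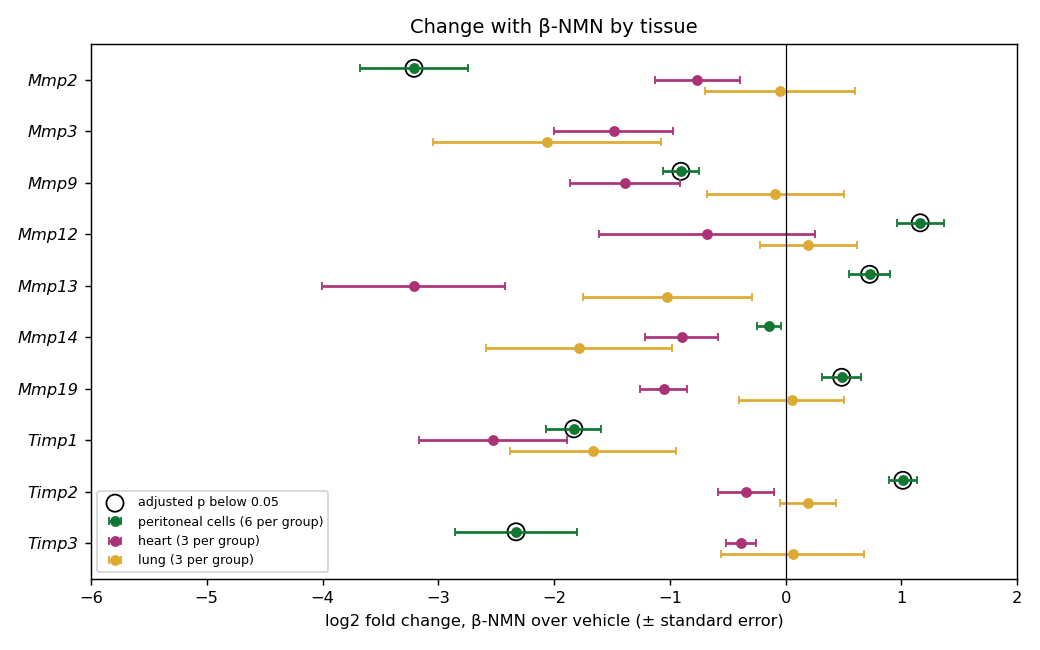
log2 fold change of β-NMN over vehicle with its standard error for each gene in peritoneal cells (6 mice per group), heart and lung (3 mice per group each), with black rings where the edgeR adjusted p is below 0.05. The 8 ringed values all belong to peritoneal cells. Mmp12, Mmp13, Mmp19 and Timp2 lie right of 0 there and, without a ring, left of 0 in heart, where the standard error of Mmp12 spans 0. Mmp3 has no point for peritoneal cells, where it did not pass the filter.

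Whether β-NMN acted unequally on the organs was tested as the difference between its changes in lung and heart. No member passed (smallest edgeR adjusted p = 0.960), nor did any of 18318 genes (0% called, 797 at an unadjusted p under 0.05, 14 called by DESeq2). The largest differences were those of Mmp13 (2.21 ± 1.16, log2, SE), Mmp9 (1.27 ± 0.82) and Mmp19 (1.09 ± 0.55), each with a less negative or a positive value in lung. The peritoneal cells came from another experiment and were not tested against the organs. Mmp12, Mmp13, Mmp19 and Timp2 had log2 fold changes of 1.16, 0.73, 0.48 and 1.01 there and of -0.68, -3.21, -1.05 and -0.34 in heart, whereas Mmp2, Mmp9, Mmp14 and Timp1 had negative values in all 3 tissues. In peritoneal cells, heart and lung these were -3.21, -0.76 and -0.05 for Mmp2, -0.90, -1.39 and -0.09 for Mmp9, -0.14, -0.90 and -1.79 for Mmp14 and -1.83, -2.53 and -1.66 for Timp1. The lung values of Mmp2 and Mmp9 changed sign under other settings, and those of Mmp14 and Timp1 were -0.28 and -0.39 without vehicle mouse 2. No heart value was called by edgeR. The heart groups of Mmp12 (SE 0.93) and Timp2 (SE 0.24) overlapped, and without vehicle mouse 2 they were at -0.25 and -0.08, so no reversal is shown for them.

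The organs themselves were compared with each mouse as a block over the 6 mice. Of the 10 members 5 were higher in lung and 1 in heart, a share close to the 63.1% called of 19279 genes, and 4 members were called without β-NMN mouse 1. Mmp9 and Mmp12 were the most lung-rich, with log2 ratios of lung over heart of 4.09 ± 0.52 and 3.45 ± 0.53 (SE, edgeR adjusted p = 0.000191 and 0.000545). Timp2 followed at 1.46 ± 0.21 (adjusted p = 0.000350), then Mmp14 at 0.84 ± 0.25 (adjusted p = 0.0167) and Mmp3 at 0.70 ± 0.22 (adjusted p = 0.0237). Mmp2 was higher in heart, at -1.71 ± 0.50 (adjusted p = 0.0162). Timp1 (0.53), Timp3 (0.20), Mmp13 (0.98) and Mmp19 (0.39) were not called. Mmp3 lost its call when any β-NMN mouse was left out (adjusted p = 0.0503 to 0.0677) and without the block by mouse (adjusted p = 0.110), Timp1 gained one with DESeq2 (0.53, adjusted p = 0.04999), Mmp14 without β-NMN mouse 1 (adjusted p = 0.0571), and Mmp19 gained one without vehicle mouse 2 (0.65, adjusted p = 0.00238). Of 12 tested relatives, 6 were called higher in lung and 3 higher in heart. Among them, Mmp8 and Mmp25, both known from neutrophils, were higher in lung (4.15 and 3.14), and Timp4, an inhibitor typical of heart, was higher in heart (-3.60, adjusted p = 0.000376). These 3 were named after their values were seen. The neutrophil marker sums were 1495 to 2665 CPM in lung and 14.4 to 39.3 in heart, and the macrophage sums 1379 to 5535 and 264 to 468. They moved with the organ as Mmp9 and Mmp12 did, and their part was not tested.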

How the data were processed

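RNA of 12 peritoneal cell, 6 heart and 6 lung libraries was quantified by the authors as raw read counts per gene symbol, deposited in 2 tables. The submitters' processing notes name STAR 2.7.3a, featureCounts 2.0.0 and the build mm10. Nothing read here says whether strand was used in counting. No other per-sample columns were present, and the samples were grouped by their labels; a heart titled with a repeated number was taken as β-NMN replicate 2 from its mouse code. The source names of the heart and lung samples describe thioglycollate peritonitis, while their titles and tissue labels name CLP, which was followed.

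Counts were filtered with filterByExpr, scaled by TMM and fitted per tissue with edgeR 4.0.16 (quasi-likelihood test, R 4.3.3, no covariates), with Benjamini-Hochberg adjustment over all genes tested and a threshold of 0.05. The difference between organs was fitted over both organs. Lung over heart was fitted with the mouse as a block. Exact two-sided permutation tests used log2 CPM with a prior count of 2. DESeq2 1.42.0, limma 3.58.1 (voom) and the other settings were alternatives, and the scripts were checked on simulated counts. Levels per kb used the union of GENCODE exons (GRCm38). Promoter windows were RefSeq's. Replicates were separate mice, and no pair of libraries agreed within sampling noise. Same-numbered vehicle and β-NMN libraries came from different mice.

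All members were named, and from each other list up to 4 called genes of smallest p per direction in peritoneal cells, or up to 2 of smallest p in a tissue without calls. The members and lists were chosen with earlier results of these data known. Amino acid sequences were not used here.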

Additional observations from a re-analysis of the deposited data

Results flagged for a closer look

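Mmp12 in vehicle peritoneal cells had 1 library far from the others: replicate 3, at 821 CPM, lay far above the next at 456 CPM in a group that began at 273. With β-NMN, replicate 5, at 878 CPM, lay below the other 5 libraries, which held 993 to 1063. Both gaps passed Dixon's test at its 0.05 level, which chance passes in about 1 of 20 groups, and groups of 3 were not tested. The test was run on both peritoneal groups of all 10 members, and the β-NMN gap, 0.6252 of its range, only just passed. That vehicle library was also the highest of its group in fibroblast (611 CPM) and macrophage marker sums (13439 CPM); their part in its Mmp12 level was not tested.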

How the results depend on the processing

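Of 668 values of single members under alternatives, 633 kept their direction and their side of the threshold. In peritoneal cells no direction turned, and the number of genes called was 7733, falling to 4244 in the 7 shallower libraries, a setting chosen after the data were seen, as were the other fits by depth. In heart, 0 genes were called, against 3 without a filter, 283 with DESeq2 and 3 with limma-voom, and 0 to 5 when 1 library was left out (5 without vehicle replicate 2). In lung, 0 became 9 with DESeq2 and 7 with limma-voom, and for the difference between organs 0 became 2 without a filter and 14 with DESeq2. The replicate numbers were not taken as pairs, since same-numbered libraries correlated at -0.17 to 0.13 in peritoneal cells, 0.07 to 0.24 in heart and -0.52 to 0.30 in lung, although each of the 3 β-NMN hearts correlated best with the vehicle heart of its own number. With a replicate block, 7133, 0 and 0 genes were called in peritoneal cells, heart and lung, and lung Mmp2 and Mmp9 turned to 0.36 and 0.24, both uncalled. With the mouse as replicate block the difference between organs for Mmp3 was 0.19, and 11590 genes were called for lung over heart with no replicate block, against 12174. Other uncalled log2 values that changed sign were those of limma-voom in lung for Mmp9 (0.015), Mmp19 (-0.23) and Timp3 (-0.27).

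Leaving out 1 library at a time, lung values ran from -0.53 to 0.61 for Mmp2, -2.53 to 0.083 for Mmp3, -0.50 to 0.83 for Mmp9, -0.31 to 0.30 for Mmp19 and -0.36 to 0.40 for Timp3. Leaving out 1 mouse, the difference between organs ran from -0.20 to 1.35 for Mmp2, -0.74 to 0.75 for Mmp3 and -1.19 to 0.17 for Mmp14, and lung over heart from -0.0074 to 0.43 for Timp3. The causes were not tested. Few counts limit Mmp12 (0 to 17) and Mmp13 (0 to 55) in heart, Mmp13 in lung (5 to 40), and in peritoneal cells Mmp3 (0 to 68) and, with β-NMN, Mmp2 (2 to 23). Levels and other genes without vehicle mouse 2, and neutrophil sums without Csf3r, were computed after the data were seen.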
